A study of Mus musculus with 4 samples.

Results

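The genes described here are the 9 on the array that carry aldosterone-sensitive sodium transport in the distal nephron: the 3 subunits of the epithelial sodium channel (Scnn1a, Scnn1b and Scnn1g), the mineralocorticoid receptor Nr3c2, the enzyme Hsd11b2 that guards it, the receptor's early targets Sgk1 (named Sgk on the array) and Tsc22d3, the ubiquitin ligase Nedd4l and the pump regulator Fxyd4. They were chosen by name from the 27573 genes on the array, with no measured value in the rule. Earlier results of these data were known when they were chosen. The 9 genes are covered by 15 probes, of which 13 were well above background in every sample of at least 1 genotype. All 9 were among the 17626 genes tested. Kidney RNA of Th3 mice, a beta-thalassemia model made by deleting the adult beta-globin genes beta-major and beta-minor, was compared with kidney RNA of control mice on 4 two-colour Agilent arrays. Each array held 1 Th3 and 1 control sample, 4 samples of each genotype in all; Th3 RNA was in Cy5 on arrays 1 and 2 and in Cy3 on arrays 3 and 4. Zygosity, age, sex and genetic background, and whether each RNA came from 1 animal, are not given in the sources used here, so p-values measure the spread between these samples.

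Sodium reabsorption in the connecting tubule and collecting duct runs through the epithelial sodium channel, a heterotrimer of alpha, beta and gamma subunits in the apical membrane. Aldosterone binds the mineralocorticoid receptor, a ligand-activated transcription factor, and raises the kinase Sgk1, which phosphorylates Nedd4l (Nedd4-2) and so keeps that ligase from ubiquitinating the channel. Glucocorticoids bind the same receptor, and Hsd11b2 inactivates them in these cells. In rodent kidney, aldosterone is known to raise the alpha subunit transcript more than the other subunit transcripts.

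Promoter sequences are shown for Sgk1, which rose, and for Tsc22d3, which did not pass the test. Exon-junction probe sequences are shown for Scnn1a, which rose, and for Hsd11b2, which did not pass. The windows of the RefSeq promoter table (GRCm38.p6) run from 250 bases before to 50 bases after each transcript start. In it 6 of the 9 genes had an entry, with 13 windows among them, 6 for Sgk1 alone. Scnn1a, Hsd11b2 and Nedd4l had no entry, so their promoters were not searched. The palindrome bound by mineralocorticoid and glucocorticoid receptors was searched as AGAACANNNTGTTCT, which reads the same on both strands. It occurred in 1 of the 13 windows, a Sgk1 window, and in 3 of all 32851 windows (0.00913%). The 250 bases before that Sgk1 start lie at chr10:21993640-21993889 on the plus strand. Capitals mark the palindrome, which runs from 189 to 175 bases before the start, and a separate hexamer that is 1 arm of it.
Sgk1 with the palindrome: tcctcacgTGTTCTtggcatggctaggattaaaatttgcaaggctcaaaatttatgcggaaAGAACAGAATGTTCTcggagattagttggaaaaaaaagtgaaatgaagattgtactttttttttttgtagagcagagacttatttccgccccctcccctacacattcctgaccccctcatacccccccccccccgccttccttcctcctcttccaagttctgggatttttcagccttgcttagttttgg
The next Sgk1 start downstream lies 776 bases away, and the 250 bases before it (chr10:21994416-21994665, plus strand) hold neither the palindrome nor an arm. The palindrome above ends 951 bases before this next start, outside its window.
Sgk1 next start: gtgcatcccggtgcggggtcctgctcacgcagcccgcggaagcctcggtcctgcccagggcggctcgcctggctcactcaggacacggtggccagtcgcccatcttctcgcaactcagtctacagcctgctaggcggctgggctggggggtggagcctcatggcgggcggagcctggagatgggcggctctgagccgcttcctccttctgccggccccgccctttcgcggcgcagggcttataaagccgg
Either arm, AGAACA or TGTTCT (each the other's reverse complement, so both strands are covered), is common: it occurred in 19% of all windows and in 4 of the 13 windows of these genes, 3 of Sgk1 and 1 of Tsc22d3. The windows of Scnn1b, Scnn1g, Nr3c2 and Fxyd4 held none. The Tsc22d3 window with an arm is on the minus strand, and the 250 bases before its start lie at chrX:140600523-140600772.
Tsc22d3 with an arm: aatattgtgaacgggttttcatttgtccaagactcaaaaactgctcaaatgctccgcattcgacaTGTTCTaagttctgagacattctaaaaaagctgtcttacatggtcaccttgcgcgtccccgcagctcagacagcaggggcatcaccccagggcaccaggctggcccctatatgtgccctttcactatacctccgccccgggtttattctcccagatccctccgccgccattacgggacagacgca
These matches describe letters in the windows; binding was not measured. The Scnn1a probe A_52_P139395 covers 205 bases of the genome with its 60 bases (mm8, chr6:125308673-125308877, plus strand), so it spans an exon junction and reads spliced RNA.
Scnn1a junction probe: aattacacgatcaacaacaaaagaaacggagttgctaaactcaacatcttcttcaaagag

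Of the 9 genes, Scnn1a and Sgk1 rose in Th3 kidney, none fell, and 7 did not pass the test. The test was limma's moderated test of Th3 over control with a dye term, adjusted by the Benjamini-Hochberg method over all 17626 genes at 0.05. By the same test 21.5% of all genes were called, 10.9% higher and 10.6% lower, so 2 of 9 is close to the share of all genes called in either direction. At an unadjusted limma p under 0.05 the counts for the 9 were also 2 higher and 0 lower. The share of all genes at that threshold was not counted. It cannot be below the 21.5% called after adjustment, so 2 of 9 is no excess there either. Their median log2 ratio was 0.03, against 0.0013 for all genes. The direction of the labels was checked on beta-globin, the target of the deletion: the probe of the beta-globin gene Hbb-bt read 8.48% of control (log2 ratio −3.56 ± 0.48, SD, n = 4; limma adjusted p 2.7e-06). Between 61.7% and 72.1% of probes were well above background in each of the 8 channels, no spot was saturated, and all arrays lay on 1 slide scanned on 1 day. Log2 ratios correlated across genes at 0.67 between arrays 1 and 2 and at 0.71 between arrays 3 and 4, but at 0.43 to 0.53 between arrays of opposite dye order.

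**Figure D1:**
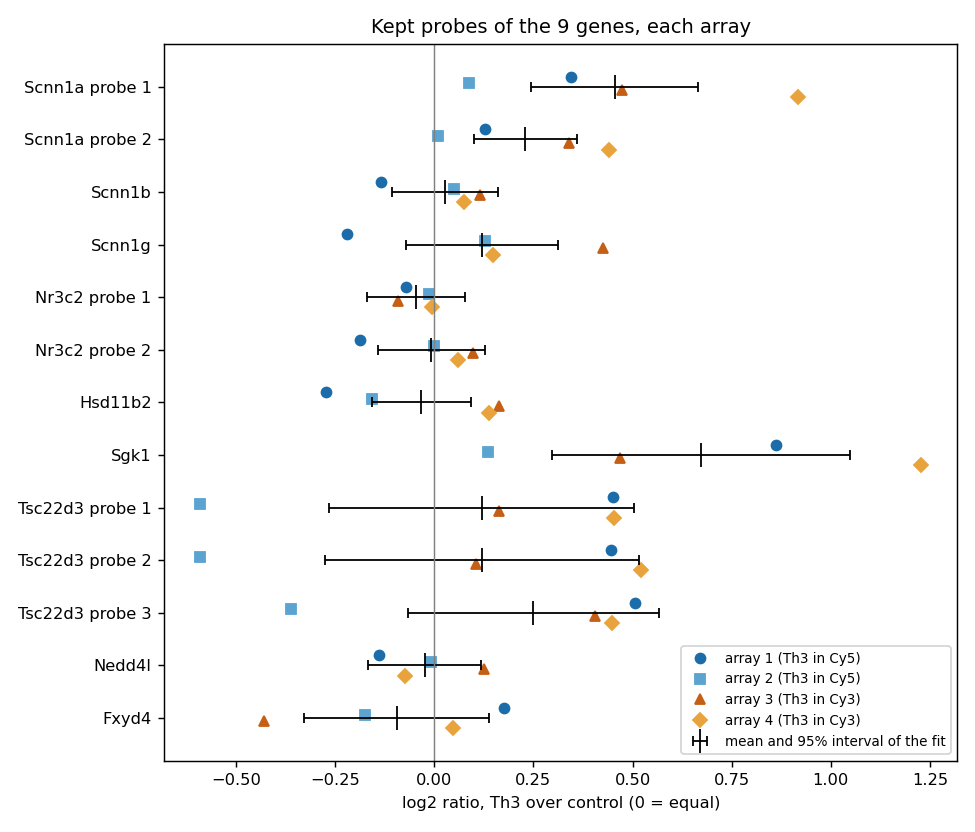
Log2 ratio of Th3 over control (x axis) for the 13 kept probes of the 9 genes (y axis), with 1 point per array, the mean as a tick and its 95% interval as a bar. Both Scnn1a probes and the Sgk1 probe lie above 0 on all 4 arrays, while the 3 Tsc22d3 probes split between array 2 and the other arrays.

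The alpha subunit Scnn1a, the pore-forming subunit without which the channel conducts little current, was higher in Th3 kidney. Its brighter probe (A_51_P213691; mm8, chr6:125310444-125310503, plus strand) read normalized log2 intensities of 13.01, 12.81, 12.93 and 13.19 in Th3 samples of arrays 1 to 4, and of 12.67, 12.72, 12.46 and 12.27 in the control samples. Every Th3 sample was above every control sample; 21% of all genes likewise had levels that did not overlap between the genotypes. The log2 ratios were 0.34, 0.09, 0.47 and 0.92, a mean of 0.46 ± 0.35 (SD, n = 4; 95% interval 0.25 to 0.67), which is 1.37-fold with a limma adjusted p of 0.0155. Array 2 gave almost no difference and array 4 the largest; 19.7% of all genes were higher on all 4 arrays. The mean was 0.22 over arrays 1 and 2 and 0.70 over arrays 3 and 4. Without the dye term the call was lost (limma adjusted p 0.0669), as it was with the dye pairs as a random block (limma adjusted p 0.0933).

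The junction probe of Scnn1a shown above moved the same way. Its log2 ratios were 0.13, 0.01, 0.34 and 0.44, a mean of 0.23 ± 0.20 (SD, n = 4), with a limma adjusted p of 0.0334 over the 26430 kept probes, of which 18.2% were called. The order of the arrays was the same on both probes, array 2 lowest and array 4 highest. The fold was smaller on the junction probe, which was dim. It read normalized log2 intensities of 7.08, 7.06, 7.15 and 7.14 in Th3 samples and 6.96, 7.05, 6.81 and 6.70 in controls. The background offset draws ratios of such dim probes toward 0, so the size of its fold is uncertain. In the authors' deposited table the brighter probe has a signed fold of 1.372, an adjusted p of 0.0709 and a false discovery rate of 3.92%. For the junction probe the authors' deposited table gives 1.253, 0.135 and 8.77%.

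The beta subunit Scnn1b and the gamma subunit Scnn1g, which complete the channel, did not pass the test. Their probes lie 150.1 kb apart on chromosome 7 (mm8, chr7:121709218-121709277 and chr7:121559068-121559127, both plus strand). Scnn1b read normalized log2 intensities of 9.76, 9.66, 9.63 and 9.57 in Th3 samples and 9.89, 9.61, 9.52 and 9.49 in controls, which overlap throughout. Its log2 ratio was 0.03 ± 0.11 (SD, n = 4), with a 95% interval of −0.11 to 0.16 (limma adjusted p 0.774). Scnn1g read 11.63, 11.58, 11.73 and 11.55 in Th3 samples and 11.85, 11.45, 11.31 and 11.41 in controls. The highest sample of all 8 was the control of array 1. Its log2 ratio was 0.12 ± 0.26 (SD, n = 4), with a 95% interval of −0.07 to 0.31 (limma adjusted p 0.327).

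The difference between subunits was tested itself, array by array. The log2 ratio of Scnn1a exceeded that of Scnn1b on 4 of 4 arrays, by 0.48, 0.04, 0.36 and 0.84, a mean difference of 0.43 (95% interval −0.10 to 0.96). The exact sign-flip permutation test gave a two-sided p of 0.125, which is the smallest that 4 arrays allow, and 0.375 after adjustment over the 3 pairs of subunits. Scnn1a exceeded Scnn1g by 0.33 on average, on 3 of 4 arrays (95% interval −0.29 to 0.96; exact p 0.25, adjusted 0.375). Scnn1b and Scnn1g differed by −0.09 (95% interval −0.35 to 0.16; exact p 0.5). With 4 arrays this test, which has no dye term, could not have passed at 0.05 whatever the values, so it does not settle whether the subunits differ.

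**Figure D2:**
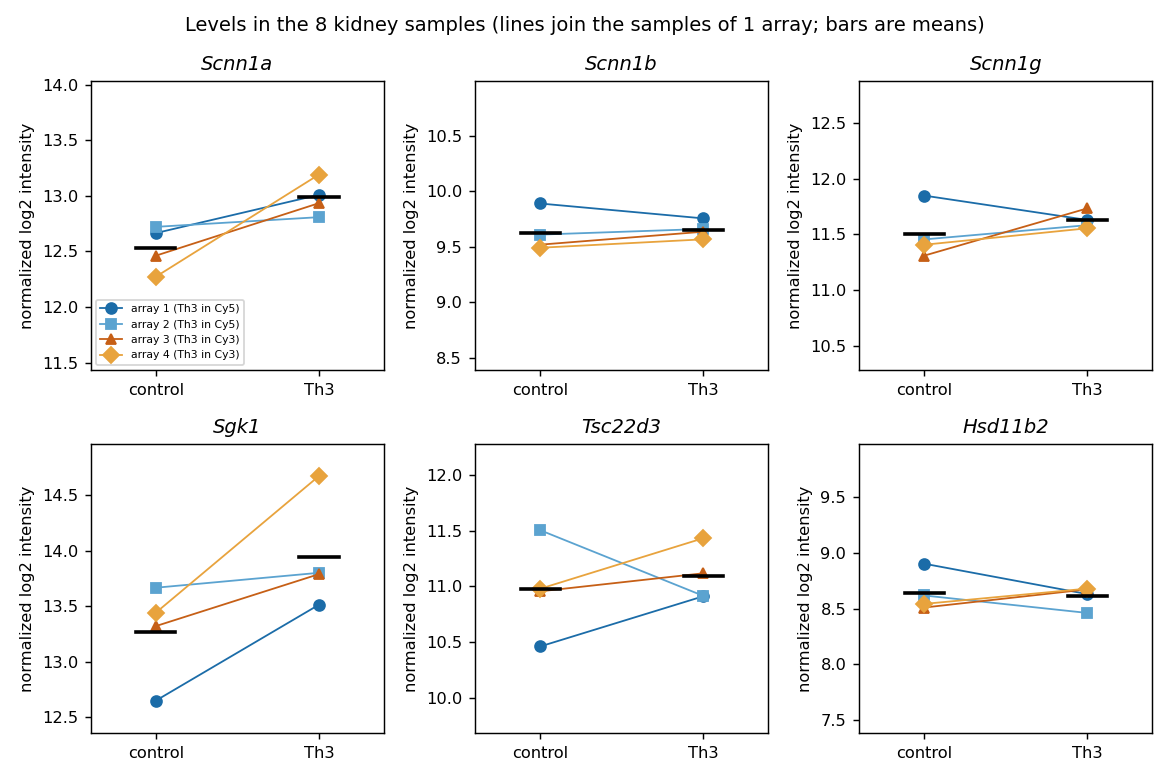
Normalized log2 intensity (y axis, a range of equal width in each panel) of 6 of the genes in control and Th3 samples, with lines joining the samples of 1 array and black bars for the means. The genotypes separate without overlap for Scnn1a, with 12.27 to 12.72 in controls and 12.81 to 13.19 in Th3; the other 5 genes overlap.

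The receptor Nr3c2 and the enzyme Hsd11b2, which converts active glucocorticoid to an inactive ketone, did not pass the test. Nr3c2 has 3 probes within 1197 bases of chromosome 8, and all were dim: the chosen probe (A_52_P378137; mm8, chr8:79805101-79805160, plus strand) read normalized log2 intensities of 6.73, 6.68, 6.73 and 6.90 in Th3 samples and 6.80, 6.69, 6.82 and 6.90 in controls. Its log2 ratio was −0.05 ± 0.04 (SD, n = 4), below 0 on 4 of 4 arrays, with a 95% interval of −0.17 to 0.08 (limma adjusted p 0.586). The same sign on all 4 arrays was seen for 37.1% of all genes. A second kept probe gave −0.01 ± 0.13 (SD, n = 4), and the third was well above background in only 1 Th3 and 2 control samples. Ratios of such dim probes are drawn toward 0 by the background offset, and the value moved with the processing: it was −0.27 with Agilent's processed signals (limma adjusted p 0.164) and −0.14 with the authors' log2 ratios, and the call did not change. In the authors' deposited table this probe is at 0.05 on array 4, so the sign on that array also depends on the processing.

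The Hsd11b2 probe (A_51_P410205; mm8, chr8:108412014-108412231, plus strand) also crosses an exon junction, with 60 bases over 218 bases of genome.
Hsd11b2 junction probe: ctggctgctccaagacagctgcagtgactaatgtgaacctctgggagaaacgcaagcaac
It read normalized log2 intensities of 8.63, 8.46, 8.67 and 8.68 in Th3 samples and 8.90, 8.62, 8.51 and 8.54 in controls. The log2 ratios of −0.27, −0.16, 0.16 and 0.14 followed the dye order, negative on both arrays with Th3 in Cy5 and positive on both with Th3 in Cy3. Their mean was −0.03 ± 0.22 (SD, n = 4), with a 95% interval of −0.16 to 0.10 (limma adjusted p 0.709). The dye term itself did not pass for Hsd11b2 (limma adjusted p 0.165); it was called for 0.993% of all genes.

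Sgk1, the kinase that relays the hormone signal to the channel, had the highest log2 ratio of the 9 genes. Its probe (A_51_P118237; mm8, chr10:21689000-21689059, plus strand) read normalized log2 intensities of 13.51, 13.80, 13.79 and 14.67 in Th3 samples and 12.65, 13.67, 13.32 and 13.44 in controls. The Th3 sample was higher on every array, but the genotypes overlapped: the Th3 sample of array 1 lay below the control of array 2. The log2 ratios were 0.86, 0.13, 0.47 and 1.23, a mean of 0.67 ± 0.47 (SD, n = 4; 95% interval 0.30 to 1.04), which is 1.59-fold with a limma adjusted p of 0.0265. The mean was 0.50 over arrays 1 and 2 and 0.85 over arrays 3 and 4. Without array 4 the log2 ratio was 0.48 and the call was lost (limma adjusted p 0.0839), and it was also lost with Agilent's processed signals (0.0545), with no filter on dim probes (0.0510) and with the dye pairs as a random block (0.0822). In the authors' deposited table the signed fold is 1.597, with an adjusted p of 0.0429 and a false discovery rate of 1.67%. The other Sgk1 probe lies 100.8 kb upstream (mm8, chr10:21588160-21588219, plus strand) and was not well above background in any of the 8 samples.

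Tsc22d3, the glucocorticoid-induced leucine zipper that aldosterone also raises in the collecting duct, depended on array 2. Its brightest probe (A_51_P235821; mm8, chrX:135886218-135886277, minus strand) read normalized log2 intensities of 10.91, 10.92, 11.12 and 11.43 in Th3 samples and 10.46, 11.51, 10.96 and 10.98 in controls. The control of array 2 was the highest of all 8 samples. The log2 ratios of 0.45, −0.59, 0.16 and 0.45 averaged 0.12 ± 0.49 (SD, n = 4), with a 95% interval of −0.26 to 0.50 (limma adjusted p 0.635). Both other probes, within 1 kb of it, gave 0.12 and 0.25 and were also below 0 on array 2 alone. Without array 2 the log2 ratio was 0.38 and passed the test (limma adjusted p 0.00902); without array 1 it was −0.14. Array 2 was also the array on which Scnn1a and Sgk1 differed least.

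Nedd4l, the ligase that removes the channel from the membrane, and Fxyd4, a small regulator of the sodium pump in the collecting duct, did not pass the test. The Nedd4l probe (A_51_P305936; mm8, chr18:65329291-65331033, plus strand) read normalized log2 intensities of 8.43, 8.55, 8.63 and 8.51 in Th3 samples and 8.56, 8.56, 8.50 and 8.58 in controls. Its log2 ratio was −0.02 ± 0.11 (SD, n = 4), with a 95% interval of −0.17 to 0.12 (limma adjusted p 0.813). Its samples lay within a narrow range and overlapped. The Fxyd4 probe (A_51_P141926; mm8, chr6:117899204-117899263, minus strand) read 14.32, 13.45, 13.48 and 13.85 in Th3 samples and 14.15, 13.63, 13.91 and 13.80 in controls. Its log2 ratio was −0.10 ± 0.27 (SD, n = 4), with both signs among the arrays and a 95% interval of −0.33 to 0.14 (limma adjusted p 0.527).

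**Figure D3:**
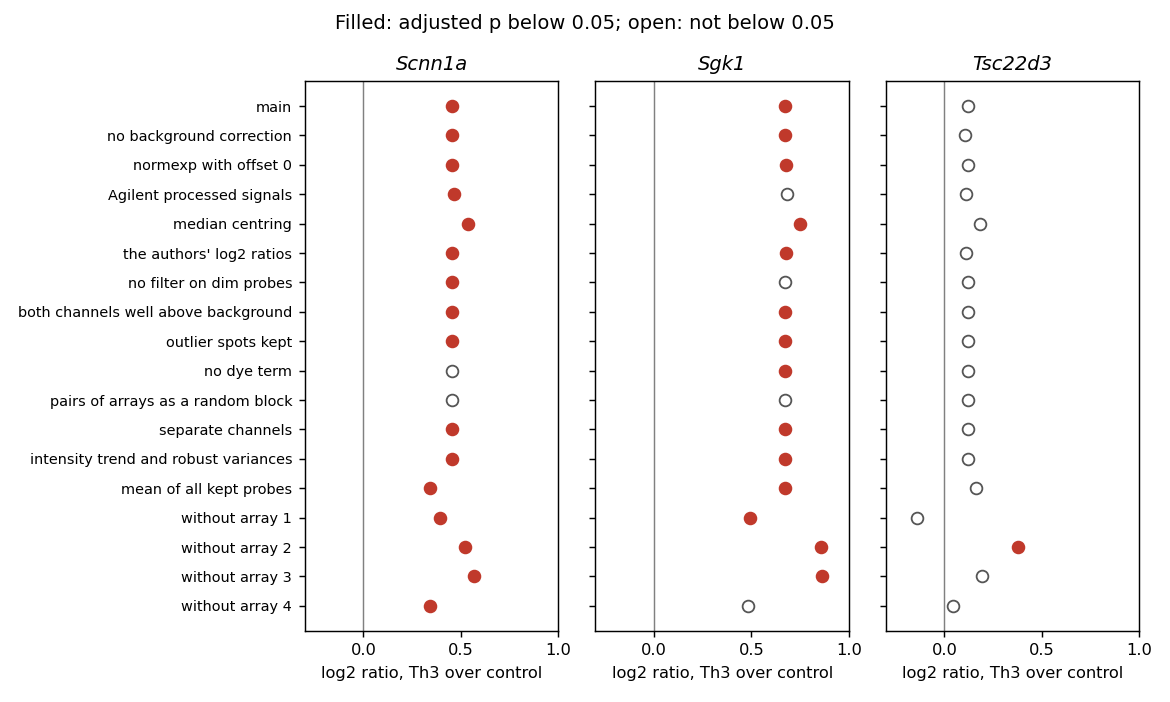
Log2 ratio of Th3 over control (x axis) of Scnn1a, Sgk1 and Tsc22d3 under the reported and 17 other processing settings (y axis), filled where the limma adjusted p was below 0.05. Scnn1a was called under 15 and Sgk1 under 13 of the 17, and both stayed above 0 throughout; Tsc22d3 was called only without array 2 and was below 0 without array 1.

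The channel's surroundings were examined in 5 lists of pathway genes, of which 59 were tested; 12 rose and 9 fell, against 10.9% and 10.6% of all genes. The shares called in the kinase and pump lists below are close to the 21.5% of all genes. The dye pairs as a random block, which left 1200 of all genes called, left 6 of the 21 pathway calls. Among 8 proteases that cleave the channel subunits and their inhibitors, 1 rose, 3 fell and 4 did not pass, with a median log2 ratio of −0.08. None of the 4 calls was left with the random block (limma adjusted p 0.0738 for Tmprss2 and 0.153 to 0.267 for the other genes) or with Agilent's processed signals, and without the dye term none of the 3 decreases was. Tmprss2, a membrane serine protease, was higher on 4 of 4 arrays (0.21, 0.39, 0.47 and 0.16; mean 0.31 ± 0.15, SD, n = 4; limma adjusted p 0.0274), but its second kept probe gave 0.08 and did not pass. The genes that fell each had 1 array of opposite sign: Prss8 (log2 ratio −0.25), the channel-activating protease prostasin, Tmprss4 (−0.21) and Serpine2 (−0.34), a serine protease inhibitor.

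Among 17 kinases and ubiquitin enzymes that act on the channel, 2 rose, 2 fell and 13 did not pass (median log2 ratio 0.02). With the random block, without the dye term and with Agilent's processed signals, 0 of the 17 were called. Cnksr3, a scaffold that joins Sgk1 and Nedd4l to the channel, was higher on 4 of 4 arrays (0.13, 0.25, 0.20 and 0.29; mean 0.22 ± 0.07, SD, n = 4; limma adjusted p 0.0347), and its 2 other kept probes gave 0.36 and 0.29. Nedd4, the close relative of Nedd4l, was higher by 0.26 ± 0.15 (SD, n = 4; limma adjusted p 0.0426), while its second probe gave 0.13 and did not pass. Mlst8, a subunit of the kinase complex that activates Sgk1, had a log2 ratio of −0.25 ± 0.11 (SD, n = 4; limma adjusted p 0.0236). The deubiquitinase Usp8 had a log2 ratio of −0.20 ± 0.10 (SD, n = 4; limma adjusted p 0.0474). The second kept probe of Usp8 gave −0.05 and did not pass. Cnksr3 and Nedd4 kept their call in 7 of 17 other settings, Mlst8 in 10 and Usp8 in 6. Sgk2 (−0.22) and Sgk3 (0.10), the kinases most like Sgk1, did not pass.

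Of 9 receptor partners and steroid enzymes, 1 rose, 2 fell and 6 did not pass (median log2 ratio −0.06). Hsd11b1, which regenerates active glucocorticoid and so runs opposite to Hsd11b2, was higher on 4 of 4 arrays (0.91, 0.33, 0.64 and 0.34), a mean of 0.56 ± 0.28 (SD, n = 4; limma adjusted p 0.0140). The receptor chaperones Fkbp4 and Hsp90ab1 were lower on 4 of 4 arrays, by log2 ratios of −0.47 ± 0.14 and −0.41 ± 0.28 (SD, n = 4; limma adjusted p 0.00708 and 0.0180). The second probes of Fkbp4 and Hsp90ab1 gave −0.20 and −0.31 and did not pass. Hsp90ab1 was at −0.03 on array 1, and its call was lost without the dye term, with the random block and without array 4. The glucocorticoid receptor Nr3c1 had a log2 ratio of −0.11 ± 0.13 (SD, n = 4; limma adjusted p 0.275).

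Of 13 other genes known to be induced by corticosteroids, 12 were tested: 7 rose, none fell and 5 did not pass. At an unadjusted limma p under 0.05, 8 were higher and 1, Mt2, was lower. The shares of all genes at that threshold were not counted, and are at least the 10.9% higher and 10.6% lower after adjustment. The median log2 ratio of the 12 was 0.46, against 0.0013 for all genes, and 10.9% of all genes rose. The list was chosen with earlier results of these data known, so its counts and median are not an independent test. Cebpd, a transcription factor, was higher by 0.98 ± 0.46 (SD, n = 4; 0.71, 0.86, 0.69 and 1.66 on arrays 1 to 4; limma adjusted p 0.00719). Ddit4, an inhibitor of mTOR signalling, was higher by 0.96 ± 0.21 (SD, n = 4; 0.79, 1.20, 0.78 and 1.07; limma adjusted p 0.00188). Dusp1, a phosphatase of MAP kinases, was higher by 0.76 ± 0.54 (SD, n = 4; 0.53, 0.38, 0.56 and 1.55; limma adjusted p 0.0164), with array 4 far above the others. Unlike Tsc22d3, these genes were above 0 on array 2.

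Errfi1 (0.63), Per1 (0.50) and Edn1 (0.42) were also higher on 4 of 4 arrays. Fkbp5, a co-chaperone widely read as a marker of glucocorticoid action, was called at 0.54 ± 0.96 (SD, n = 4; limma adjusted p 0.0495), and the call was lost in 10 of 17 other settings (limma adjusted p 0.326 without the dye term and 0.370 with the random block). Its log2 ratios were 1.79 and 0.77 on arrays 1 and 2 and −0.28 and −0.15 on arrays 3 and 4, and the mean was 0.28 without array 1. Its 2 other kept probes gave 1.02 and 0.56 and passed the test over probes, which the chosen probe did not (limma adjusted p 0.0573). Rasd1 (0.31), Klf9 (0.15), Ndrg2 (−0.12) and the metallothioneins Mt1 (−0.17) and Mt2 (−0.37) did not pass. These genes answer to other stimuli as well: Ddit4 and Edn1 are also induced by hypoxia, and Dusp1 and Cebpd by stress and inflammatory signals. With a single array left out, between 5 and 8 of the 12 rose, and without array 2 Mt1 and Mt2 also fell (log2 ratios −0.32 and −0.59; limma adjusted p 0.0214 and 0.000141); with the dye pairs as a random block 4 rose.

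**Figure D4:**
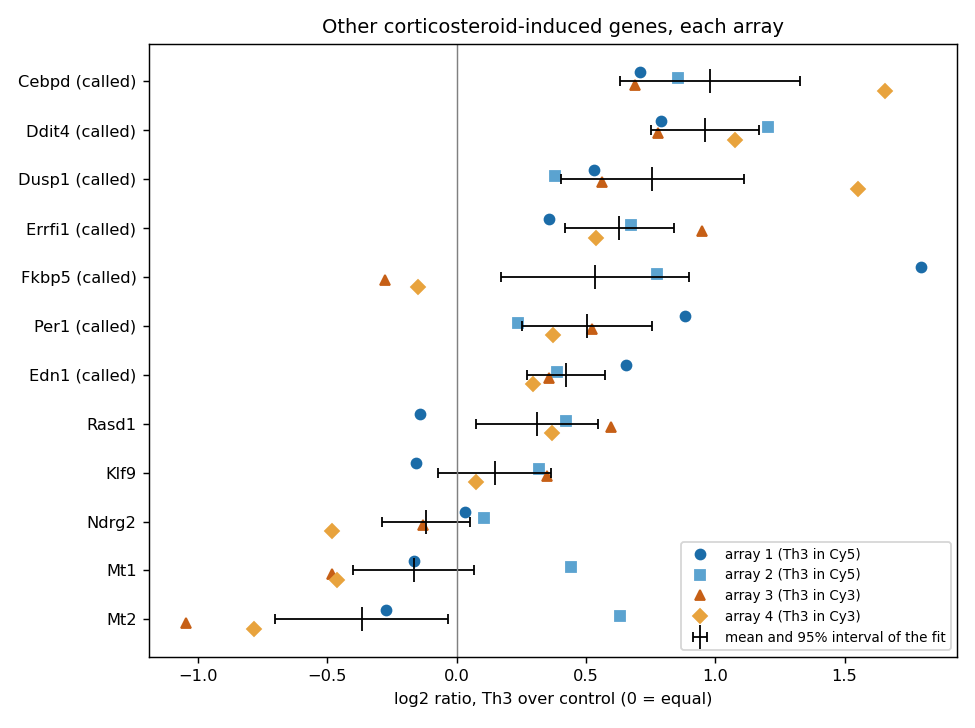
Log2 ratio of Th3 over control (x axis) of the 12 tested corticosteroid-induced genes outside the 9 (y axis), with 1 point per array, the mean as a tick and its 95% interval as a bar. Cebpd, Ddit4, Dusp1, Errfi1, Per1 and Edn1 lie above 0 on all 4 arrays; Fkbp5 splits by dye order.

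Among 13 tested genes of the sodium pump, its FXYD regulators and potassium transport (of 16), 1 rose, 2 fell and 10 did not pass (median log2 ratio −0.03). With the random block none of the 3 calls was left (limma adjusted p 0.103 for Kcnj16, 0.0729 for Fxyd2 and 0.118 for Fxyd6), and Fxyd6 passed in 7 of 17 other settings. The potassium channel subunit Kcnj16 was higher by 0.32 ± 0.22 (SD, n = 4; limma adjusted p 0.0236). The pump regulators Fxyd2 and Fxyd6, relatives of Fxyd4, had log2 ratios of −0.25 ± 0.08 and −0.23 ± 0.12 (SD, n = 4; limma adjusted p 0.0232 and 0.0438). The second kept probe of Fxyd6 gave −0.13 and did not pass. The pump subunit Atp1b1 (−0.40) and the secretory potassium channel Kcnj1 (−0.10) did not pass. Atp1b1 was below 0 on 4 of 4 arrays (limma adjusted p 0.0611), and it was called lower without array 1, without array 2 and without array 4.

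**Figure D5:**
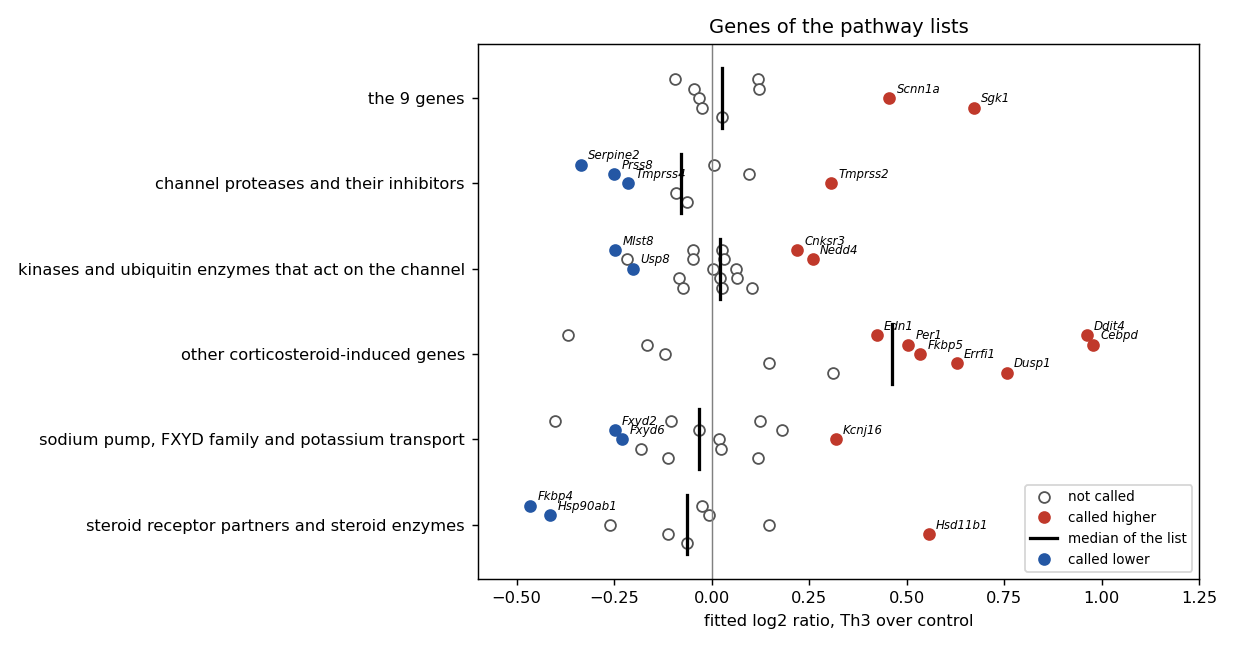
Fitted log2 ratio of Th3 over control (x axis) of each tested gene in the 9 and in the 5 pathway lists (y axis), filled red where called higher and blue where called lower, with a black bar at each list's median. The medians lie between −0.08 and 0.03 except that of the corticosteroid-induced genes, at 0.46. All lists were chosen with earlier results of these data known.

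In whole kidney RNA, fewer cells of a type and less RNA per cell cannot be told apart. Markers of principal and connecting tubule cells, which hold the channel, did not move together. By the limma test, 10.9% of all genes rose and 10.6% fell. Of 7 principal cell markers, 1 rose (Aqp3, log2 ratio 0.69) and 6 did not pass; their summed linear levels were 45861 to 64078 in Th3 and 37849 to 51626 in control samples. Of 5 connecting tubule markers, 3 fell: Klk1 (−0.76), S100g (−0.55) and Trpv5 (−0.30), each on 4 of 4 arrays. Their sums did not overlap, with 92325 to 123249 in Th3 and 147660 to 183477 in controls. Of all single genes, 21% likewise had levels that did not overlap between the genotypes. Of 10 markers of intercalated cells, a separate cell type, Aqp6 (0.63) and Atp6v1g3 (0.27) rose and 8 did not pass. Decreases were also seen in other segments. Of 4 proximal tubule markers 2 fell, Slc34a1 (−0.44) and Slc5a2 (−0.21), though a second kept probe of Slc34a1 gave 0.18 and did not pass. Of 3 distal convoluted tubule markers 1 fell, Pvalb (−0.45), and of 3 thick ascending limb markers 0 were called. The shares called in the principal and intercalated lists were not above the 21.5% of all genes called. The part of these marker differences in the ratios of the channel genes was not tested.

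Markers of cells that could enter the dissection were also measured. Beside their counts, 10.9% of all genes were called higher and 10.6% lower. Of 13 adrenal gland markers on the array, 7 were tested and 1 fell (Hsd3b6, −0.28). Hsd3b6 split by dye order, with log2 ratios of −0.71, −0.46, 0.05 and 0.006 on arrays 1 to 4. No adrenal marker was called without the dye term or with the random block. The defining steroid enzymes Cyp11b2, Cyp11a1 and Cyp21a1 were not well above background in any of the 8 samples. The summed linear levels of the 13 markers were 2568 to 3024 in Th3 and 2809 to 3045 in controls. Of 7 tested macrophage markers 5 fell, and of 6 tested lymphocyte markers 4 fell. The medians of macrophage markers were 0.13, −0.15, −0.64 and −0.83 on arrays 1 to 4, and those of lymphocyte markers −0.09, −0.10, −0.82 and −0.48, so the decrease lay mainly on the arrays with Th3 in Cy3. Without the dye term 2 macrophage and 0 lymphocyte markers were called, and with the random block 1 and 0. Of 4 tested brown fat markers 3 fell (Ucp1, −3.40), and of 4 white fat markers 1 rose (Adipoq, 1.00). With the random block 1 brown fat marker was called lower and no white fat marker higher. Adipoq was at −0.47 on array 4, its mean was 0.56 without array 3, and its call was lost without the dye term and with the random block (limma adjusted p 0.158 with the block). Sgk1, Dusp1 and Cebpd are expressed in many cell types, and the part of immune and fat cells in their ratios was not tested.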

How the data were processed

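Per the file headers, the arrays (design 014868, probe positions on mm8) were read with Agilent Feature Extraction 9.5.3.1; the authors deposited spot intensity values as scanned and as processed signals, and a log10 ratio of red over green per spot. The authors' deposited table gives log2 ratios per array, a signed fold score, adjusted p-value and false discovery rate in percent; its normalization and tests are not given in the sources used here, and from the values its ratios run as Th3 over control. Mean signals were background-corrected (normexp, offset 50) and normalized by loess in limma 3.58.1 (R 4.3.3), with control and outlier spots at weight 0, and turned to Th3 over control; sample levels were also scaled between arrays. A probe was kept if well above background in all 4 samples of a genotype, and each gene is represented by its brightest kept probe (26430 kept probes, 17626 genes). lmFit and eBayes fitted Th3 and dye, with Benjamini-Hochberg adjustment. The number of arrays limits precision. The script was tested on simulated data.

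The 9 genes and the lists were chosen with earlier results of these data known. Every member and every probe is given; of each pathway list, counts are given, and by name up to 3 called genes each way with 1 sign on all 4 arrays, and Hbb-bt as label check. Other list genes are named after their values were seen, as members of counts of 7 or fewer. Probes were named through RefSeq accessions, symbols and synonyms. Alternatives covered background, normalization, filter, dye term, blocks, variance model, probe choice and each array left out.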

Additional observations from a re-analysis of the deposited data

Results flagged for a closer look

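Dusp1, of the corticosteroid-induced genes, had a log2 ratio of Th3 over control of 1.55 on array 4, far from 0.38 to 0.56 on the other arrays. It was the only one of 23 genes examined whose highest or lowest array stood apart by Dixon's 95% limit, and chance flags about 1 in 20.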

How the results depend on the processing

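Of the 391 single-gene values under the 17 other settings, 309 kept direction and side of the threshold, 76 lost their call, 1 gained one and 5 changed sign, each of an uncalled gene with an array left out: Tsc22d3 −0.14 and Nedd4l 0.0085 without array 1, Scnn1b −0.019 without array 2, Fxyd4 0.0245 without array 3 and Nedd4l 0.0256 without array 4. All genes called numbered 3793, and 1990 without the dye term, 1200 with the dye pairs as a random block and 5731 with separate channels (2596 to 3190 with an array left out). Of the 9 genes, 1 was called with Agilent's processed signals, with no filter or without the dye term, 0 with the random block (correlation 0.182), and 1 to 3 with an array left out (1 without array 4, 3 without array 2). With an array left out, Tsc22d3 ranged up to 0.3796, Scnn1b up to 0.0732, and Nedd4l and Fxyd4 down to −0.0738 and −0.2146. Scnn1a ranged from 0.34 to 0.57 and Sgk1 from 0.48 to 0.86. Of the pathway genes, 21 were called, and 10 with processed signals, 10 without the dye term, 6 with the random block and 9 to 16 with an array left out (9 without array 3). The cause was not tested; fits with an array left out hold fewer samples. Centring on the median made 62.9% of calls higher, against 50.8%. Each array's ratio already pairs its Th3 and control sample. Probes near background, as of Nr3c2, limit what could be seen.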
